A study of Mus musculus with 6 samples.

Results

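The collagen genes other than collagen I were taken from the gene symbols alone: every symbol made of Col, a number, a and a number was kept, and *Col1a1* and *Col1a2* were left out. This gave 42 genes of 24421 in the count table, and 34 of them passed the filter on low counts. The libraries came from primary cells cultured from the mouse stria vascularis, the vascularised lining of the outer wall of the cochlear duct, and labelled as endothelial cells. The methods describe taking the stria vascularis together with the spiral ligament, which lies in the same wall. The 3 Nhe6-knockout (KO) and 3 wildtype (WT) cultures were compared, with 1 poly(A) RNA library from each. The KO allele is a targeted disruption present in all cells of the animal. All 6 cultures were untreated, came from mice at postnatal day 10 to 12, and each pooled the tissue of several mice, so a culture is not a single animal. The labels give the background of both genotypes as C57BL/6N, whereas the methods describe a backcross into C57BL/6J. The cells had been sorted and grown in culture before RNA was taken, and the p-values below measure the spread between 3 such cultures a genotype.

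Collagens are trimers of α chains wound around each other, and each gene encodes a single chain. Fibril-forming collagens make the banded fibrils of connective tissue, network-forming collagens make the sheets of basement membranes, and the fibril-associated, beaded-filament, anchoring and transmembrane collagens link these structures to each other or to cells. In the stria vascularis, the capillaries lie in collagen IV basement membranes, and inherited loss of the α3, α4 or α5 chain of collagen IV (Alport syndrome) is known for hearing loss. Collagens II, IX and XI are known from cartilage and from the acellular matrices of the cochlea, where mutations of their chains also cause hearing loss.

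Depth was similar in the 6 libraries, at 25587097 to 29126232 gene counts. Values are given as normalized counts, counts scaled by the TMM library factor to the mean library size, for replicates 1 to 3 of each genotype in that order. WT replicate 2 was unlike the rest: in a principal component analysis of all genes, component 1 (50.2% of the variance) placed it at 106 and the remaining 5 libraries between -28.5 and -6.52. Values without it are given beside the genes they move most. KO replicates 1 and 2 were more alike than the other 5 pairs of libraries of the same genotype (chi-square per degree of freedom 4.84, against 92.2 to 419), although they differed by more than sampling noise, and they were kept as 2 samples. Whether these 2 cultures are as independent as the others is not known, so the p-values may rest on fewer independent KO cultures than 3.

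The labelled cell type was checked against markers. Of 15 endothelial markers, 7 averaged 100 normalized counts or more, *Cldn5* and *Sox17* were at 0 in all 6 libraries, and *Pecam1* reached at most 7.82 normalized counts. *Cdh5*, the adhesion molecule of endothelial junctions, was lower in KO (log2 fold change -4.15, adjusted p = 0.0133). The summed endothelial markers ranged from 16883 to 25946 normalized counts in KO and from 15991 to 23652 in WT. *Emcn* was most of this sum in every library but WT replicate 2, with 18394, 17408 and 9901 in KO and 13413, 410 and 14731 in WT. *Vwf* reached at most 23.2 normalized counts. All 15 fibroblast markers reached the level of 100 normalized counts on average (sums 170744 to 187563 in KO, 160445 to 255202 in WT), as did 7 of 15 mural cell markers (26263 to 27498 and 21668 to 40332). The level was reached by 6 of 12 macrophage markers (sums 1468 to 3864 in KO, 96.0 to 3634 in WT), 1 of 12 melanocyte markers (414 to 716 and 288 to 1224) and 2 of 10 epithelial markers (63.4 to 767 and 4.13 to 1202). It was also reached by 5 of 8 osteoblast markers (56691 to 158214 and 50445 to 185658) and 3 of 8 Schwann cell markers (7884 to 11624 and 11837 to 21178). WT replicate 2 held the lowest endothelial, macrophage, melanocyte, epithelial and osteoblast sums of the 6 libraries. It also held the highest fibroblast and mural sums. Single markers behaved otherwise than these sums: *Sp7* and *Alpl* of the osteoblast list (log2 fold changes 2.47 and 3.21), *Dcn* and *Fap* of the fibroblast list (1.00 and 2.09) and *Notch3* of the mural list (1.24) were higher in KO without overlap and called by DESeq2, with adjusted p of 0.0985, 0.152, 0.0952, 0.224 and 0.209 in edgeR. In the other direction, *Flt1* of the endothelial list and *Pmp22* of the Schwann cell list were lower in KO without overlap and called by DESeq2. Their log2 fold changes were -1.79 and -0.70, with adjusted p of 0.242 and 0.123 in edgeR. *Twist1* of the fibroblast list and *Anpep* of the mural list (-0.18 and -0.45) were also lower without overlap, but not called. *Postn* of the fibroblast list (0.89, adjusted p = 0.460, and 0.0114 without WT replicate 2) was higher without overlap. So were *Pdgfrb*, *Rgs5*, *Des* and *Abcc9* of the mural list (0.51, 1.04, 1.74 and 2.33), which were not called. Values without overlap were higher for 3 and lower for 1 of 15 fibroblast markers, and for 5 and 1 of 13 mural markers tested. Of all genes, 10.3% were higher and 9.57% lower without overlap, and DESeq2 called 4.65%. The osteoblast sum was mostly *Spp1* (53517 to 151737 in KO, 48301 to 179407 in WT). In bulk cultures, fewer cells of a type and less RNA per cell cannot be told apart, and the part of these cell types in the collagen values was not tested. The 16 cell cycle genes summed to 9152 to 16237 in KO and 3816 to 4481 in WT. At an unadjusted p under 0.05, 14 of the 16 were higher in KO, beside 6.14% of all genes. None passed the adjusted threshold in edgeR with all 6 libraries. Without WT replicate 2, 8 were called higher, beside 1.62% of all genes. DESeq2 called 12 higher, beside 4.65% of all genes in either direction. The part of the cell cycle genes in the collagen values was not tested either.

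In these cultures the 42 collagen genes held 1.09%, 1.18% and 0.922% of gene counts in the KO cultures (1.06% ± 0.13, SD, n = 3) and 0.710%, 1.31% and 0.614% in the WT cultures (0.878% ± 0.377, SD, n = 3). WT replicate 2 was above and the other WT cultures were below all KO cultures. The difference of 0.185 percentage points was smaller than the spread (two-sided exact permutation p = 0.5, where the smallest p possible is 0.1), and without WT replicate 2 it was 0.401. Per kb of exon, which allows genes to be compared, the mean level over the 6 cultures was highest for *Col3a1* (5344 normalized counts per kb), the only chain of collagen III. Next in this order were *Col6a1* (4938), *Col4a1* (4571), *Col4a2* (2937) and *Col5a1* (2156). At the low end, *Col25a1*, a transmembrane collagen of neurons, had 2, 2 and 8 reads in KO and none in WT.

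On the same per kb scale, the fibril-forming genes held 29.8%, 29.4% and 34% of the collagen total in KO and 27.8%, 19.7% and 32.9% in WT. The basement membrane genes held 24.7%, 25.2% and 21.8% in KO and 18.5%, 30.2% and 18.7% in WT. The ranges of the 2 genotypes overlapped for both classes. WT replicate 2 held the lowest fibril-forming share and the highest basement membrane share of the 6 cultures. It was also the highest in short-chain network collagens, with 16.4% against 1.76% to 7.38% in the other 5 cultures, and the lowest in multiplexins, with 2.7% against 8.86% to 16.7%.

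**Figure D1:**
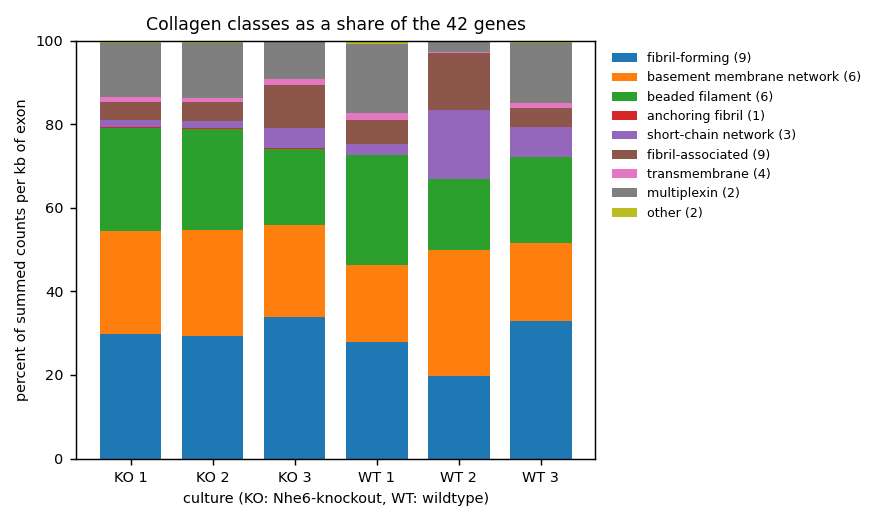
Share of each collagen class in the summed counts per kb of exon of the 42 genes, as stacked bars in percent for each of the 6 cultures, with the number of genes in each class in the legend. WT replicate 2 differs from the other 5 bars in its short-chain network share (16.4%) and its multiplexin share (2.7%).

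Between the genotypes, no collagen gene passed the adjusted threshold of 0.05 with all 6 cultures in the edgeR quasi-likelihood test, in which 0.0668% of the 13479 genes tested did. At an unadjusted p under 0.05, 6 collagen genes were higher in KO (*Col11a1*, *Col7a1*, *Col5a3*, *Col5a1*, *Col2a1* and *Col9a3*) and 2 were lower (*Col4a6* and *Col8a1*). These are 17.6% and 5.88% of the 34 tested, beside 6.14% and 5.71% of all genes. The KO and WT values did not overlap for 7 genes with higher KO values (20.6%) and 1 with lower ones (2.94%), beside 10.3% and 9.57% of all genes. The fold changes of 25 of the 34 genes (73.5%) were above 0, beside 48.1% of all genes. The median log2 fold change of the 34 genes was 0.38, beside -0.02 for all genes tested.

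The call depended on the test and on WT replicate 2. With the DESeq2 Wald test, which called 4.65% of all genes, 5 collagen genes were higher in KO (*Col2a1*, *Col5a1*, *Col5a3*, *Col7a1* and *Col11a1*) and *Col4a6* was lower. With edgeR but without WT replicate 2, which called 1.62% of all genes higher in KO, 5 collagen genes were higher (*Col5a1*, *Col5a2*, *Col5a3*, *Col11a1* and *Col28a1*) and none lower, and at an unadjusted p under 0.05 the counts were 13 higher and 3 lower of 35, beside 9.99% and 9.49% of all genes. WT replicate 2 was the highest or the lowest of the 6 cultures for 22 of the 34 genes (64.7%), beside 53.3% of all genes. Of the 34 genes, 5 (*Col6a5*, *Col6a6*, *Col8a2*, *Col12a1* and *Col24a1*) changed the sign of the fold change when it was left out.

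**Figure D2:**
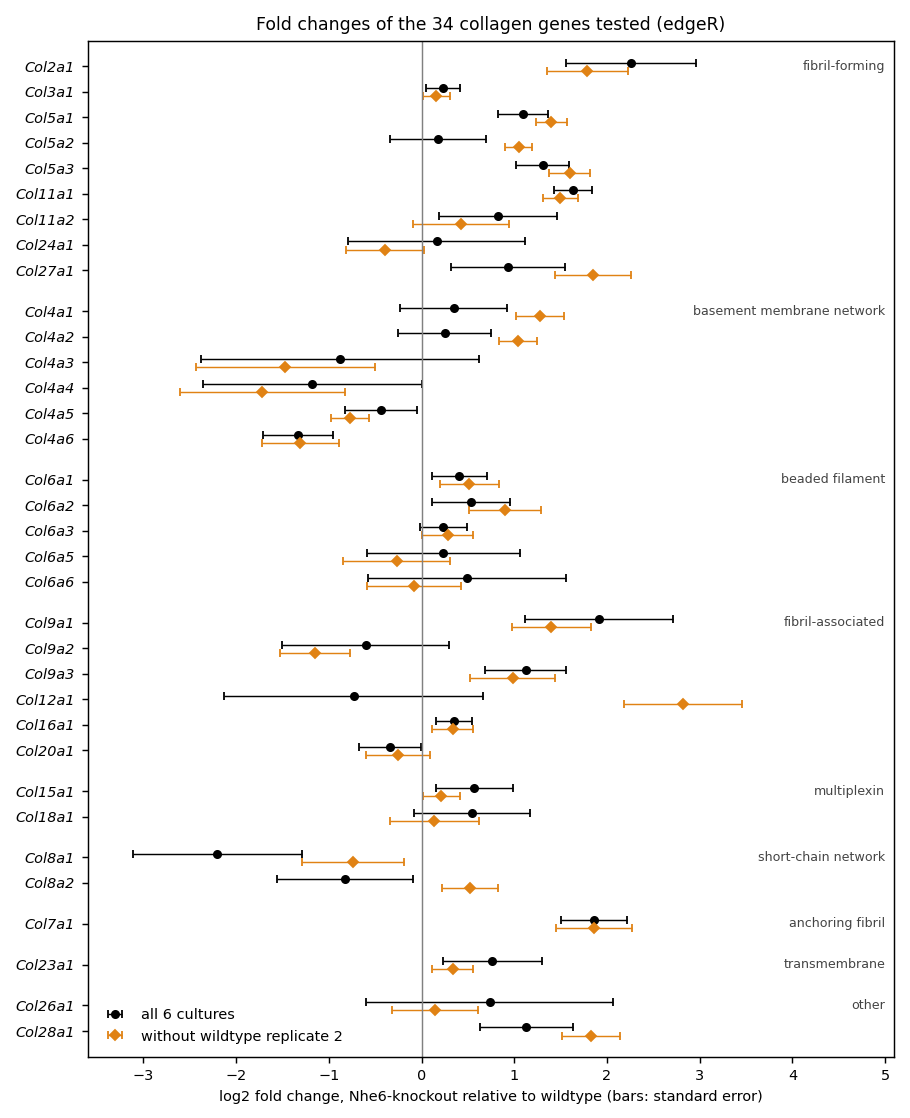
Log2 fold change of KO relative to WT for the 34 collagen genes tested with edgeR, by class, with all 6 cultures (black circles) and without WT replicate 2 (orange diamonds), and bars for the standard error. All 9 fibril-forming genes lie above 0 with all 6 cultures. Without WT replicate 2, *Col24a1* lies at -0.39, and *Col12a1* moves from -0.73 to 2.82.

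Of the fibril-forming collagens, all 9 genes were tested and all 9 had fold changes above 0, beside 48.1% of all genes. Without WT replicate 2, *Col24a1* fell below 0 (-0.39). At an unadjusted p under 0.05, 4 of the 9 were higher in KO, beside 6.14% of all genes. Higher KO values without overlap were seen for 5 of the 9, beside 10.3% of all genes. The median log2 fold change of the 9 was 0.93, and none passed the adjusted threshold with all 6 cultures. Within this class *Col11a1*, *Col5a3* and *Col5a1*, genes of collagens that start fibrils and limit their diameter, had the smallest p-values.

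*Col11a1*, the α1 chain of collagen XI, had the smallest p of the 42 genes. It had 15066, 15400 and 11662 normalized counts in the KO cultures and 5502, 3710 and 4404 in the WT cultures. The lowest KO culture was above the highest WT culture. The means were 14043 ± 2068 and 4539 ± 904 (SD, n = 3 each), and the fitted fold was 3.09. On the log2 scale this was 1.63 (SE 0.21, adjusted p = 0.0757), and 1.5 (SE 0.19, adjusted p = 0.0260) without WT replicate 2. Over the alternatives its adjusted p ranged from 3.08e-10 to 0.467, and its log2 fold change from 1.5 to 1.79 when each culture was left out in turn. With KO replicates 1 and 2 summed, its adjusted p in edgeR was 0.428. *Col11a1* lies at chr3:114030540-114220718 (GRCm38, plus strand).

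*Col5a1* encodes the collagen V α1 chain found in nearly all collagen V trimers, and it had 24781, 27948 and 22034 normalized counts in KO and 10004, 16226 and 8825 in WT. The groups did not overlap, although WT replicate 2 lay nearest to the KO cultures. Fitted as a log2 fold change, the difference was 1.09 (SE 0.27, adjusted p = 0.182), and 1.40 (SE 0.17, adjusted p = 0.0236) without that culture. Its adjusted p ranged from 0.00540 to 0.652 over the alternatives. *Col5a3*, the α3 chain present in some collagen V trimers, had 697, 836 and 587 normalized counts in KO and 264, 392 and 201 in WT. Here too the groups did not overlap and WT replicate 2 was the highest WT culture. The fit gave a log2 fold change of 1.31 (SE 0.28, adjusted p = 0.139), and 1.60 (SE 0.22, adjusted p = 0.0325) without WT replicate 2, over a range of 0.00255 to 0.554 for the adjusted p.

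*Col5a2*, the chain that joins α1 in the common form of collagen V, had 11111, 11629 and 9518 normalized counts in KO and 5409, 18150 and 4937 in WT. WT replicate 2 was the highest of the 6 cultures and the other WT cultures were the lowest, so the groups overlapped. The log2 fold change was 0.18 (SE 0.52, adjusted p = 0.929), and 1.05 (SE 0.15, adjusted p = 0.0325) without WT replicate 2, over a range of 0.0325 to 0.999 for the adjusted p. *Col5a1* (chr2:27886425-28039514, plus strand), *Col5a2* (chr1:45374321-45503282, minus strand) and *Col5a3* (chr9:20770050-20815067, minus strand) lie on different chromosomes. *Col5a1* overlaps the antisense genes *2810430I11Rik* and *Gm13372*, and the strand setting of the counting is not given in the sources used here.

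The promoter windows of *Col5a1*, *Col5a3* and *Col11a1*, and that of *Col7a1* described below, are shown because these genes had the smallest p-values among the genes higher in KO. Each runs from 250 bases before the RefSeq transcription start to 50 after it (GRCm38.p6), and the capitals mark the letters GGGCGG, the GC box bound by Sp-family factors, on either strand.
Col5a1, chr2:27886175-27886474, plus strand: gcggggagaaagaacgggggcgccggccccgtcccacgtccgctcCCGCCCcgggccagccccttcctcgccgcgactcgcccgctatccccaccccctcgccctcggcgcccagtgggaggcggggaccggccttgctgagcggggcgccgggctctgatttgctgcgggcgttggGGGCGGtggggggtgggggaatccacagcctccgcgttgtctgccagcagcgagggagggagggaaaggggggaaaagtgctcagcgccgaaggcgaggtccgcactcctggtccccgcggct
Col5a3, chr9:20815018-20815317, minus strand: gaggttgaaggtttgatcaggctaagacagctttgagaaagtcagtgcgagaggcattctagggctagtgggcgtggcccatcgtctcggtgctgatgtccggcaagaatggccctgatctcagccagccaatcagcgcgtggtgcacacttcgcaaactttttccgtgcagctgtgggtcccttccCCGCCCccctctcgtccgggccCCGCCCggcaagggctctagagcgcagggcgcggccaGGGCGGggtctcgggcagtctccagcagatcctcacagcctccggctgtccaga
Col11a1, chr3:114030290-114030589, plus strand: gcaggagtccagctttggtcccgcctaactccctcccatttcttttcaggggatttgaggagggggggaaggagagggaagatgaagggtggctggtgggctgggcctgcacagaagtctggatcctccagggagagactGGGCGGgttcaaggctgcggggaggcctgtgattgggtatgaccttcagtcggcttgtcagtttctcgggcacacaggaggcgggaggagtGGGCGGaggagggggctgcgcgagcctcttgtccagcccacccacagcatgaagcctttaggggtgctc
Col7a1, chr9:108953336-108953635, plus strand: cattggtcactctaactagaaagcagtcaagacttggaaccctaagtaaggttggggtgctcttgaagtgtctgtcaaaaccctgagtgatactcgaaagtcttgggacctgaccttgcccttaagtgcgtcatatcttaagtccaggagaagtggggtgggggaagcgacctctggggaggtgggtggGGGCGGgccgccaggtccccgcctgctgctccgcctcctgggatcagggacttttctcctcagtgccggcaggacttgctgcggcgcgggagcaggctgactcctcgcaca
The GC box was present 2, 3, 2 and 1 times in the windows of *Col5a1*, *Col5a3*, *Col11a1* and *Col7a1*. The letters CCAAT, searched on both strands, occurred 1 time in each window but that of *Col5a1*, and TATAAA occurred in none of the 4 windows. Of all 32851 promoter windows in the table, 35.7% held a GC box, 37.4% CCAAT and 13.6% TATAAA. For 34 of the 42 collagen genes a window was given (37 windows), of which 22 (59.5%) held a GC box, 12 (32.4%) CCAAT and 5 (13.5%) TATAAA. The collagen windows also had a higher GC content, with a median of 59.7% beside 52.7% for all windows.

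*Col2a1*, the chain of cartilage collagen II, averaged 75.9 normalized counts per kb, close to *Col5a3* (72.9) and below *Col11a1* (729) and *Col5a1* (2156). It had 813, 910 and 1757 normalized counts in KO and 240, 58.8 and 430 in WT. All KO cultures were above all WT cultures, with KO replicate 3 the highest and WT replicate 2 the lowest. Its log2 fold change was 2.26 (SE 0.70, adjusted p = 0.282), and 1.79 (SE 0.44, adjusted p = 0.0943) without WT replicate 2, with a range of 0.0155 to 0.671 over the alternatives. Of the 10 chondrocyte markers, only 3 passed the filter and were tested (*Sox9*, *Comp* and *Cnmd*). None of the 3 passed the adjusted threshold in edgeR or DESeq2, and *Comp* was lower at an unadjusted p under 0.05. An average of 100 normalized counts or more was reached by 2 of the 10, *Sox9* and *Cnmd*. *Acan* reached at most 2.79 normalized counts and *Matn1* stayed under 1. The sum ranged from 1502 to 4178 in KO and from 942 to 3408 in WT. It was mostly *Sox9*, with 1472, 1542 and 4138 in KO and 669, 3043 and 1143 in WT.

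*Col3a1*, highest per kb in the mean of the 6 cultures though not in each of them, had 57361, 59813 and 52945 normalized counts in KO and 50190, 43444 and 50976 in WT. The groups did not overlap, but the 6 cultures lay within 1.38-fold of each other and the log2 fold change was 0.23 (SE 0.18, adjusted p = 0.686). *Col11a2*, the partner chain of *Col11a1* in collagen XI, had 90.3, 176 and 79.5 normalized counts in KO and 121, 24.8 and 49.2 in WT, with overlap. *Col27a1*, a minor fibril-forming collagen of cartilage, had a log2 fold change of 0.93 (SE 0.62), and 1.85 (adjusted p = 0.0751) without WT replicate 2. *Col24a1*, also a minor fibril-forming collagen, ranged from 513 to 677 normalized counts in KO and from 37.2 to 1113 in WT (log2 fold change 0.16, and -0.39 without WT replicate 2).

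**Figure D3:**
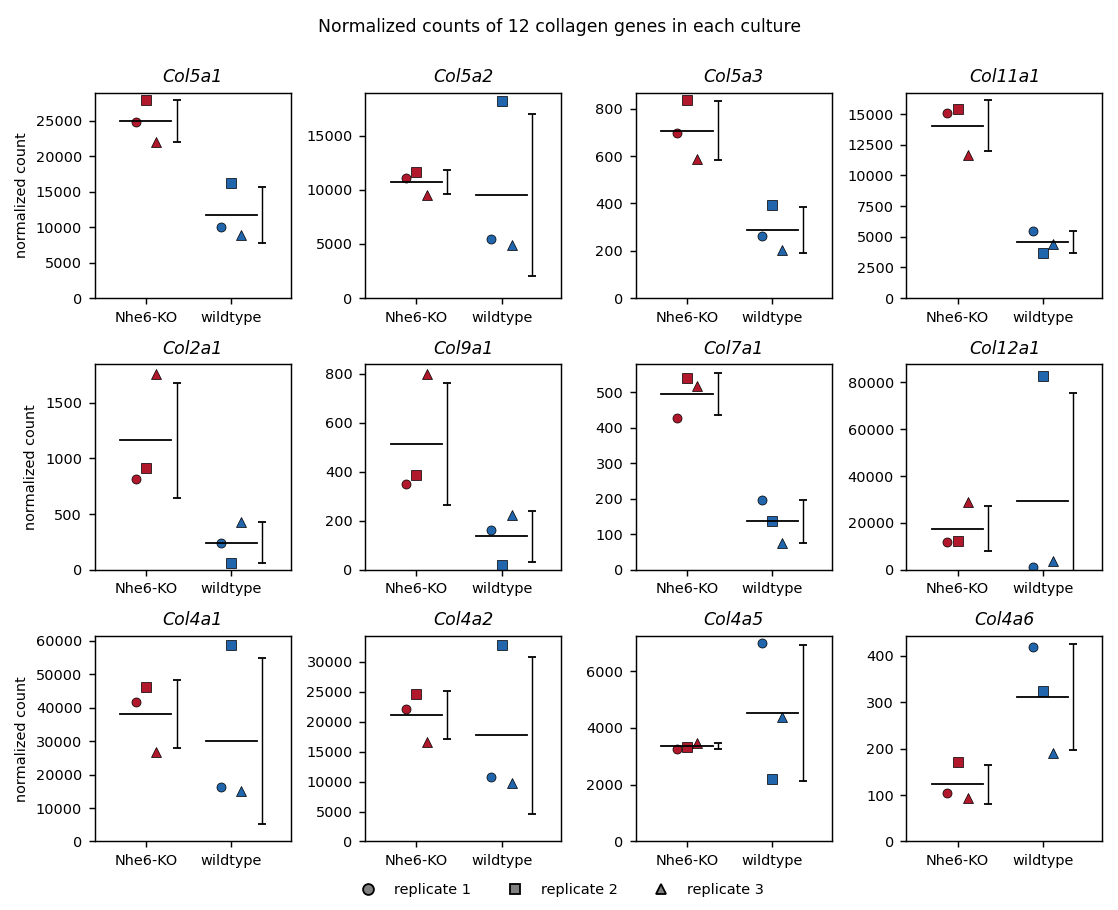
Normalized counts of 12 collagen genes in each KO (red) and WT (blue) culture on linear axes from 0, with the mean (line), the SD (bar, n = 3) and a marker shape for each replicate number. KO and WT points are separate for *Col5a1*, *Col5a3*, *Col11a1*, *Col2a1*, *Col9a1*, *Col7a1* and *Col4a6*, while WT replicate 2 is the highest of the 6 points for *Col5a2*, *Col12a1*, *Col4a1* and *Col4a2*.

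*Col7a1* encodes the anchoring fibrils that tie epithelial basement membranes to the tissue below, and is best known from skin. It had 427, 540 and 517 normalized counts in KO and 197, 137 and 74.9 in WT. The lowest KO culture was above the highest WT culture, and the fitted fold was 3.63 (means 495 ± 59.7 and 136 ± 60.8, SD, n = 3 each). The log2 fold change was 1.86 with all 6 cultures (SE 0.36, adjusted p = 0.114) and 1.86 without WT replicate 2 (SE 0.41, adjusted p = 0.0769), and its adjusted p ranged from 1.26e-04 to 0.471 over the alternatives. *Col7a1* lies at chr9:108953586-108984875 (plus strand), and *Mir711* lies within it.

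Of the basement membrane collagen IV genes, all 6 were tested, 2 had fold changes above 0 and 4 below. Their median log2 fold change was -0.66. At an unadjusted p under 0.05, 1 of the 6 was lower in KO, beside 5.71% of all genes, and none passed the adjusted threshold. The 6 genes lie as 3 head-to-head pairs: *Col4a1* and *Col4a2* (chains of the network of nearly all basement membranes) on chromosome 8, *Col4a3* and *Col4a4* on chromosome 1, and *Col4a5* and *Col4a6* on the X chromosome.

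*Col4a1* had 41760, 46115 and 26670 normalized counts in KO and 16346, 58742 and 15088 in WT. *Col4a2* had 22047, 24601 and 16675 in KO and 10737, 32889 and 9686 in WT. For both genes WT replicate 2 was the highest culture and the other WT cultures were the lowest, with KO in between. The log2 fold changes were 0.35 (SE 0.58, adjusted p = 0.866) and 0.25 (SE 0.50, adjusted p = 0.890). Without WT replicate 2 they were 1.28 (SE 0.26, adjusted p = 0.0650) and 1.04 (SE 0.20, adjusted p = 0.0567), both above the threshold.

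These genes (*Col4a1* chr8:11198423-11312826, minus strand, *Col4a2* chr8:11312805-11449287, plus strand) start 21 bases apart in the GENCODE annotation and run in opposite directions. The 2 promoter windows are shown because they cover the same stretch of DNA, marked by capitals (78 bases, read on opposite strands).
Col4a1, chr8:11312777-11313076, minus strand: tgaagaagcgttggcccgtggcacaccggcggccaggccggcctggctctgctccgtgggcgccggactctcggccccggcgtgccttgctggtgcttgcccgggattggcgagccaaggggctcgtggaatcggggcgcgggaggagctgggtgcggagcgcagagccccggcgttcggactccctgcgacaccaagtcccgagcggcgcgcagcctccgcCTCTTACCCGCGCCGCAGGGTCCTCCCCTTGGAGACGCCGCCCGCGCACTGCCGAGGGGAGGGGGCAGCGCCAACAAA
Col4a2, chr8:11312555-11312854, plus strand: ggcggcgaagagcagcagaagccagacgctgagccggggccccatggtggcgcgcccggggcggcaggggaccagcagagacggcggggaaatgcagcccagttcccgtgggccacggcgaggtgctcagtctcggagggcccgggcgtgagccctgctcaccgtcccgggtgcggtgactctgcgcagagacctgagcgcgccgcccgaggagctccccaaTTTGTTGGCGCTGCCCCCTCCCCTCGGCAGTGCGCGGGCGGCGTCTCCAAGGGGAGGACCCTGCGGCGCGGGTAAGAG
Within a library, *Col4a1* had 1.89, 1.87 and 1.60 times the reads of *Col4a2* in KO and 1.52, 1.79 and 1.56 times in WT. This ratio lay within 1.24-fold over the 6 cultures, while the normalized counts of *Col4a1* ranged over 3.89-fold and those of *Col4a2* over 3.40-fold. The exons of both genes overlap at their starts, and *Col4a2* also overlaps the antisense gene *Gm15419*.

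*Col4a5*, which joins α3 and α4 or α6, had 3258, 3326 and 3465 normalized counts in KO and 6993, 2201 and 4402 in WT. The KO cultures lay within the WT range (log2 fold change -0.44, SE 0.39, adjusted p = 0.726, and -0.77, SE 0.20, adjusted p = 0.110, without WT replicate 2). *Col4a6* had 105, 172 and 93.7 normalized counts in KO and 419, 324 and 192 in WT, and was the single collagen gene with every KO culture below every WT culture. Its log2 fold change was -1.33 (SE 0.38, adjusted p = 0.25), -1.31 (SE 0.41, adjusted p = 0.162) without WT replicate 2, and its adjusted p ranged from 0.0337 to 0.751. The *Col4a5* to *Col4a6* ratio was 30.8, 19.3 and 36.8 in KO and 16.7, 6.78 and 22.9 in WT, with overlap.

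*Col4a3* and *Col4a4*, which with *Col4a5* make the network that is missing in Alport syndrome, were low. *Col4a3* had 30.8, 47.4 and 1.89 normalized counts in KO and 104, 0 and 43.9 in WT, and *Col4a4* had 42.5, 64.1 and 3.79 in KO and 162, 8.26 and 79.2 in WT. KO replicate 3 and WT replicate 2 were the lowest cultures for both genes. A count of 0, as in WT replicate 2, still allows an expected count of up to about 3 reads. Neither gene differed between the genotypes beyond the spread (log2 fold changes -0.88, SE 1.5, and -1.18, SE 1.18, adjusted p = 0.869 and 0.765). Without WT replicate 2 the log2 fold changes were -1.47 and -1.72, adjusted p = 0.462 and 0.356.

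**Figure D4:**
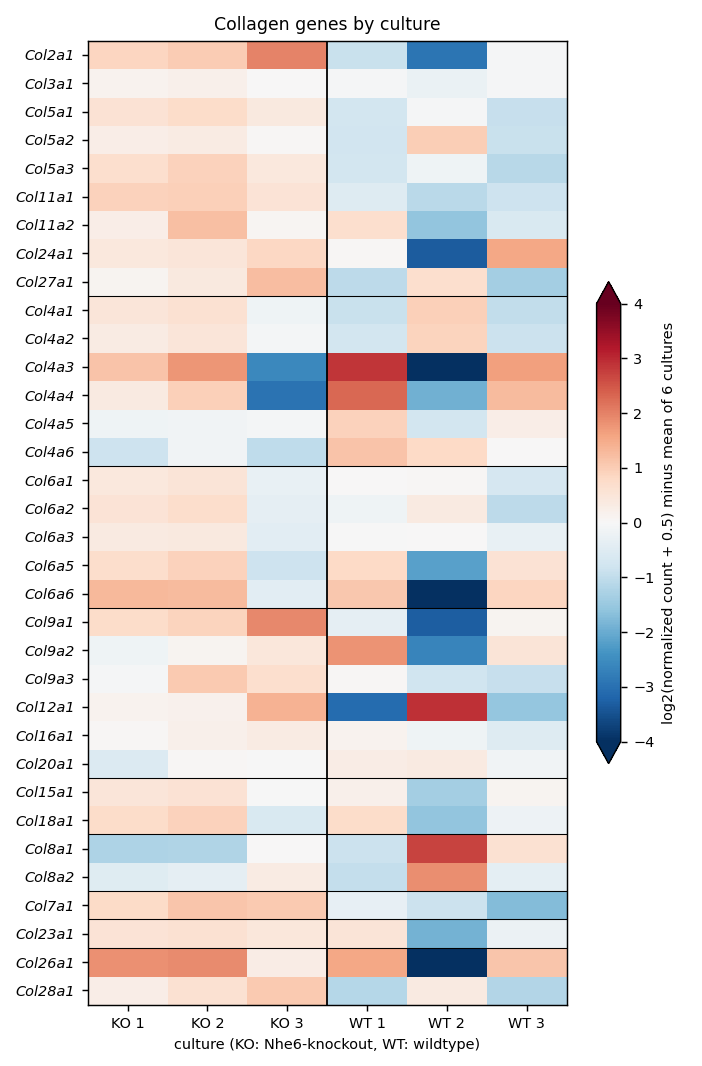
Log2 of the normalized count plus 0.5, minus the mean over the 6 cultures, for the 34 collagen genes tested, in rows grouped by class, with the 3 KO cultures left and the 3 WT cultures right of the black line. WT replicate 2 is the highest culture for 7 genes and the lowest for 15.

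Of the beaded-filament collagen VI genes, 5 of 6 were tested and none had an unadjusted p under 0.05. Collagen VI links cells to the surrounding matrix, and its main chains α1, α2 and α3 assemble in equal number. *Col6a1* had 27666, 29548 and 16797 normalized counts in KO and 21213, 21361 and 13185 in WT. *Col6a2* had 12146, 13515 and 6467 in KO and 7351, 10745 and 4065 in WT, and *Col6a3* had 19718, 19998 and 11383 in KO and 15403, 15474 and 12493 in WT. Replicate 3 was the lowest culture of each genotype for all 3 genes, a shared replicate number for which the labels state no pairing. The log2 fold changes were 0.41 (SE 0.30), 0.54 (SE 0.42) and 0.24 (SE 0.25), with adjusted p of 0.662, 0.682 and 0.781, and 0.52, 0.90 and 0.28 without WT replicate 2. *Col6a5* and *Col6a6*, chains that can take the place of α3, reached at most 29.7 and 192 normalized counts, and *Col6a4* did not pass the filter.

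Of the fibril-associated collagens, which sit on the surface of fibrils, 6 of 9 genes were tested and their median log2 fold change was 0.00. *Col9a1*, a chain of the collagen IX that coats collagen II fibrils, had 349, 389 and 799 normalized counts in KO and 162, 20.6 and 225 in WT. The groups did not overlap, and the log2 fold change was 1.91 (SE 0.80, adjusted p = 0.421), 1.40 (SE 0.42, adjusted p = 0.147) without WT replicate 2. *Col9a2*, its partner chain, had 585, 704 and 896 normalized counts in KO and 2279, 104 and 933 in WT, with the KO cultures inside the WT range (log2 fold change -0.60, SE 0.90, adjusted p = 0.850). *Col9a3*, the remaining chain, had 61.6, 132 and 100.4 in KO and 65.5, 36.1 and 33.2 in WT (log2 fold change 1.12, SE 0.44, adjusted p = 0.392). The exons of *Col9a3* overlap the antisense gene *Tcfl5*.

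*Col12a1*, a fibril-associated collagen of dense connective tissue, was uneven over the cultures. It had 11830, 12166 and 28745 normalized counts in KO and 1294, 82648 and 3679 in WT. WT replicate 2 held 33.2 times the mean of the other 2 WT cultures (2486), and *Col12a1* made up 22.3% of its collagen reads against 0.653% and 2.12% there. All KO cultures lay above those 2 and below WT replicate 2. Its log2 fold change was -0.73 (SE 1.40, adjusted p = 0.884), and 2.82 (SE 0.64, adjusted p = 0.0801) without WT replicate 2, so that the sign rests on this culture. The collagen I genes, which are no members, were also uneven there: *Col1a1* had 965, 1228 and 513 normalized counts in KO and 207, 27188 and 213 in WT, while *Col1a2* ranged from 87350 to 186316 in all 6 cultures. *Col16a1* ranged from 4058 to 4959 in KO and from 2752 to 4402 in WT, and *Col20a1* had 35.1, 53.0 and 50.2 in KO and 63.6, 66.0 and 46.0 in WT, with overlap (log2 fold change -0.34, SE 0.34, adjusted p = 0.754).

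The short-chain network collagen VIII genes, made by endothelial and smooth muscle cells and by the cornea, both had lower means in KO. *Col8a1* had 2803, 2872 and 6758 normalized counts in KO and 3648, 43373 and 10155 in WT, with overlap and with WT replicate 2 the highest culture. Its log2 fold change was -2.20 (SE 0.91, unadjusted p = 0.05 when rounded and adjusted p = 0.421 in edgeR), and -0.74 (SE 0.55, adjusted p = 0.519) without WT replicate 2. *Col8a2* had 1477, 1613 and 2596 in KO and 1069, 7406 and 1564 in WT, and its log2 fold change turned from -0.82 (SE 0.73) to 0.52 (SE 0.30) without that culture. *Col10a1*, the collagen of hypertrophic cartilage, had 23 reads in WT replicate 2 and at most 1 in the other cultures.

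The multiplexins *Col15a1* and *Col18a1* are basement membrane proteoglycans of vessels, and endostatin is cut from the collagen XVIII chain. *Col15a1* had 15283, 16069 and 10697 normalized counts in KO and 12404, 4246 and 11668 in WT. *Col18a1* had 17580, 20033 and 7036 in KO and 17582, 3609 and 9351 in WT. For both genes WT replicate 2 was the lowest culture and the groups overlapped, with log2 fold changes of 0.57 (SE 0.41, adjusted p = 0.660) and 0.55 (SE 0.62, adjusted p = 0.792). Without WT replicate 2 they were 0.21 and 0.14, and without WT replicate 1 they were 0.81 and 1.19.

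*Col28a1*, known from peripheral nerve, had 137, 174 and 232 normalized counts in KO and 50.9, 147 and 50.3 in WT. WT replicate 2 lay within the KO range. In the fit its log2 fold change was 1.13 (SE 0.50, adjusted p = 0.447), and 1.83 (SE 0.31, adjusted p = 0.0431) without that culture, with a range of 0.0431 to 0.933 over the alternatives. *Col23a1*, a transmembrane collagen, ranged from 2411 to 2639 in KO and from 470 to 2509 in WT, and *Col26a1* from 575 to 1749 and from 4.13 to 1381, with log2 fold changes of 0.76 and 0.73 (0.34 and 0.15 without WT replicate 2). WT replicate 2 held the lowest value of both genes. The 8 genes below the filter had at most 56 reads in a library, which *Col22a1* had in KO replicate 2 (25, 56 and 2 reads in KO and 3, 0 and 0 in WT).

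Chains of the same or neighbouring collagens were then compared as ratios within a library, which needs no scaling between libraries. Of 15 pairs listed, 13 had at least 10 reads for both genes in every library and were tested with a two-sided exact permutation test, which cannot go below 0.1 with 3 against 3 cultures. The KO and WT ratios did not overlap for 5 pairs, each with p = 0.1 (exact permutation, 0.26 after adjustment over the 13 pairs).

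The difference was widest for collagen IX, whose chains assemble together. *Col9a1* had 0.597, 0.552 and 0.892 times the reads of *Col9a2* in KO and 0.071, 0.202 and 0.241 times in WT, a mean log2 ratio higher in KO by 2.13 (2.34 without WT replicate 2). In collagen VIII, *Col8a1* had 1.90, 1.78 and 2.60 times the reads of *Col8a2* in KO and 3.41, 5.86 and 6.49 times in WT, a log2 ratio that differed by -1.29 (-1.19 without WT replicate 2). The direction was the same without WT replicate 2 in both, although *Col8a2* alone changed sign.

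The *Col5a1* to *Col5a2* ratio was 2.23, 2.40 and 2.32 in KO and 1.85, 0.894 and 1.79 in WT, higher in KO by 0.69 on the log2 scale, and by 0.35 without WT replicate 2. The WT ratios lay further apart than the KO ratios. *Col5a1* to *Col5a3* was 35.5, 33.4 and 37.5 in KO and 37.8, 41.3 and 43.8 in WT, a log2 difference of -0.21. *Col6a3* to *Col6a1* was 0.713, 0.677 and 0.678 in KO and 0.726, 0.724 and 0.948 in WT, a log2 difference of -0.20, and of -0.074 without WT replicate 3. The other 8 ratios overlapped between the genotypes. Among them, the ratio of the neighbouring genes *Col3a1* and *Col5a2*, which lie 24615 bases apart on chromosome 1, was 5.16, 5.14 and 5.56 in KO and 9.28, 2.39 and 10.3 in WT. That of *Col15a1* to *Col18a1* was 0.869, 0.802 and 1.52 in KO and 0.705, 1.18 and 1.25 in WT.

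**Figure D5:**
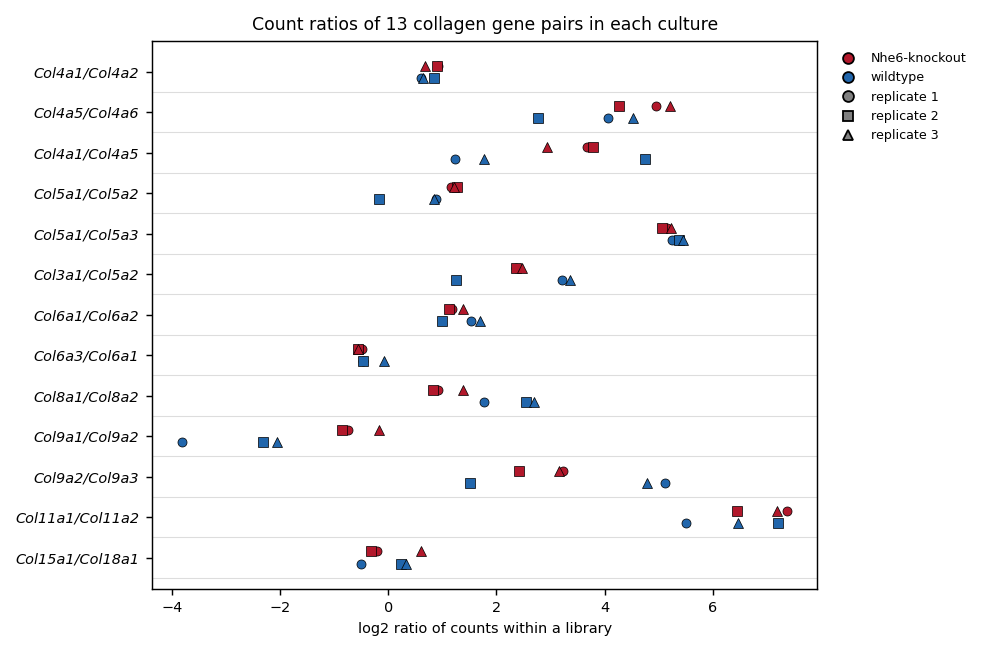
Log2 ratio of the counts of 13 collagen gene pairs within each library, with KO cultures in red, WT cultures in blue and a marker shape for each replicate number. KO and WT points are separate for 5 pairs, widest for *Col9a1* and *Col9a2* (log2 difference 2.13), and the *Col4a1* to *Col4a2* ratio lies within 1.24-fold in all 6 cultures.

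Genes that act on collagens were compared in the same fit. Of 29 genes of collagen folding, cross-linking and cleavage, 28 were tested, none passed the adjusted threshold in edgeR (2 in DESeq2, *Adamts14* and *Loxl3*), 7 were higher in KO and none lower at an unadjusted p under 0.05, and the median log2 fold change was 0.32. Of all genes, 6.14% were higher and 5.71% lower at this unadjusted threshold, and DESeq2 called 4.65%. *Adamts14*, an enzyme that removes the amino-terminal propeptide of fibrillar procollagens, had 206, 226 and 136 normalized counts in KO and 43.0, 65.0 and 61.0 in WT (log2 fold change 1.75, adjusted p = 0.106), and passed the threshold without WT replicate 2 (log2 fold change 1.86, adjusted p just under 0.05). *Loxl3*, a lysyl oxidase that cross-links collagen, had 3817, 3762 and 3565 in KO and 2674, 2668 and 2341 in WT, a log2 fold change of 0.54 (adjusted p = 0.124). The other 5 were the proline hydroxylases *P4ha2*, *P4ha3*, *P3h1* and *P3h3* (log2 fold changes 0.75, 0.79, 0.29 and 0.38) and the galactosyltransferase *Colgalt1* (0.39).

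Of 10 collagen receptor genes, 9 were tested and none passed in edgeR, adjusted or unadjusted, nor in DESeq2 (median log2 fold change -0.09). Without WT replicate 2 the median was 0.32, with 2 genes lower at an unadjusted p under 0.05. *Gp6*, the platelet collagen receptor, was at 0 in all 6 libraries. Of 17 basement membrane genes that act beside collagen IV, 16 were tested, none passed the adjusted threshold in edgeR (2 in DESeq2, *Lamb1* and *Lamc3*), 3 were higher at an unadjusted p under 0.05 and none lower, beside the same shares of all genes, and the median log2 fold change was 0.44. The laminin chain *Lamb1* had 19454, 19834 and 20528 normalized counts in KO and 12597, 13470 and 13941 in WT (log2 fold change 0.58, adjusted p = 0.165). The laminin chain *Lamc3* had 55.2, 53.9 and 67.2 in KO and 13.7, 2.06 and 8.56 in WT. KO and WT values of both laminin chains did not overlap. *Lamc3* had a log2 fold change of 2.84 (adjusted p = 0.144), and passed the threshold without WT replicate 2 (log2 fold change 2.38, adjusted p = 0.0425). *Agrn*, the heparan sulfate proteoglycan agrin, had a log2 fold change of 0.90 (adjusted p = 0.421), and 0.57 without WT replicate 2.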

How the data were processed

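RNA was measured in 6 libraries of cells cultured from stria vascularis with spiral ligament (3 KO, 3 WT), grouped by the genotype in the labels. The authors deposited raw counts of reads per gene. Per the submitters' processing notes, bcl2fastq 2.20.0.422, STAR 2.7.7a, HTSeq 0.13.5 and DESeq2 1.26.0 were used with mm10; the annotation and strand setting of the counting are not given in the sources used here, so reads of genes that overlap on opposite strands may not be separable. The 5 summary lines of the table (22.2% of reads) were left out. The level of the targeted gene is not reported here.

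Counts were tested with edgeR 4.0.16 (R 4.3.3): filterByExpr with a minimum count of 10, TMM factors (0.976 to 1.03), the quasi-likelihood test of genotype, Benjamini-Hochberg adjustment over all genes and a threshold of 0.05. All adjusted p-values are from edgeR unless DESeq2 is named. A gene's SE is its log2 fold change divided by the square root of F. Ratios used log2 of counts plus 0.5. The steps were tested on simulated data with libraries drawn independently around a mean per gene and genotype. Such data hold no outlying culture like WT replicate 2 and no pair as alike as KO replicates 1 and 2. The simulation therefore does not cover these features. Alternatives were size factors, filters, DESeq2 1.42.0, limma-voom (limma 3.58.1), a replicate block, leaving out each library, and KO replicates 1 and 2 summed. Positions are from GENCODE M21 (GRCm38, the same build as mm10). Counting error is small at these depths except for genes of few reads, and the number of cultures limits the precision.

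Members, classes, pairs, pathway lists and marker lists were chosen with earlier results of these data known. Values per library were given for members past the threshold in edgeR with all libraries or with 1 left out, for the pairs, and for the 5 smallest p-values in each direction. Other members are given by range and count, except the *Col10a1*, *Col22a1* and *Col25a1* reads, named after their values were seen.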

Additional observations from a re-analysis of the deposited data

How the results depend on the processing

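With all 6 cultures, 9 genes of the whole table were called by edgeR and no collagen gene. Over the table, the count was 21 with every gene of at least 1 read, 21 with at least 10 reads in every library, 627 with DESeq2, 2 with a replicate block, 1 with KO replicates 1 and 2 summed, and 0 to 395 when each library was left out. Of the collagen genes, DESeq2 called 6 and leaving out each library called 0 to 5, the 5 without WT replicate 2; the other alternatives called 0. Collagen genes without overlap between the genotypes numbered 8, and 8 to 17 when each library was left out (16 without KO replicate 3, 13 without WT replicate 1, 17 without WT replicate 2). The share of all genes without overlap was 19.9% with all cultures and 32.7%, 33.6% and 38.3% in these 3 settings, beside 23.5% and 47.1%, 38.2% and 50% of the 34 collagen genes. The median log2 fold change of the collagen genes was 0.26 to 0.65 over the alternatives. The difference in collagen share ranged from 0.0534 to 0.401 percentage points when each library was left out.

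Of 376 fold changes of 27 genes under the alternatives, 14 in 7 genes had the opposite sign. Leaving out each library gave log2 fold changes of -0.055 to 1.04 for *Col4a2*, -1.59 to 0.28 for *Col4a3*, -0.77 to 0.015 for *Col4a5*, -0.14 to 1.05 for *Col5a2*, -1.25 to 0.52 for *Col8a2*, -1.14 to 0.49 for *Col9a2* and -1.30 to 2.82 for *Col12a1*. limma-voom gave 0.16 for *Col4a3*, 0.23 for *Col9a2* and 1.12 for *Col12a1*, and the replicate block gave 0.15 for *Col9a2* and 1.65 for *Col12a1*. DESeq2 gave no adjusted p for *Col12a1*. The log2 difference of the ratio *Col3a1* to *Col5a2* (-0.21) ranged from -0.89 to 0.17, and that of *Col15a1* to *Col18a1* (0.01) from -0.28 to 0.18. The causes of these changes were not tested.

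Deviations from the group means had correlations of 0.207, -0.189 and 0.111 between cultures of the same replicate number. The labels state no pairing by number, and with 3 cultures a genotype these correlations cannot decide whether there was any. A share of counts without mitochondrial genes could not be had, since the table holds no mitochondrial symbols. With 3 cultures a genotype, a difference smaller than the spread was not detectable. With every gene of at least 1 read, which added the 8 collagen genes below the filter, 9 collagen genes were higher and 2 lower at an unadjusted p under 0.05 and none passed the adjusted threshold in edgeR.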
